A study of Rattus norvegicus with 21 samples.

Results

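The rat pituitary adenomas studied here were ranked by how strongly they expressed genes of mitosis, and the adenomas at the top of that ranking were compared with those at the bottom. The lesions of one sample number were averaged first. The score was the mean log2 value of Top2a, which encodes the topoisomerase that untangles replicated DNA, Nusap1, which encodes a protein that bundles spindle microtubules, Ccnb1, which encodes cyclin B1, the partner of the mitotic kinase, and Pbk, which encodes a kinase of dividing cells. The groups were chosen by these measured values: the 4 sample numbers with the highest score formed the high-score group and the 4 with the lowest the low-score group, which took in 8 of the 9 adenoma sample numbers and 14 of the 21 arrays. One array was made for each of 16 lesions and for each of 5 normal pituitaries. All rats came from the Sprague–Dawley white eye/Wistar–Kyoto background. The lesions came from animals homozygous for the p27Kip1 (Cdknb1) mutation, aged 7 to 12 months, and the normal pituitaries from wildtype animals aged 6 months, so genotype and age cannot be told apart in any comparison with normal tissue. The adenomas arise spontaneously, often several to a gland, from 1 germline mutation, and the tissue was dissected by eye, so other cells of the gland can be present. The sample number was read as the animal. The study's text counts more rats than the labels hold sample numbers, so a number could stand for more than 1 animal, and each n of adenomas here counts sample numbers.

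Entry into mitosis is driven by cyclin A and cyclin B with the kinase encoded by Cdk1, and most genes of mitosis are switched on late in the cell cycle, after the genes of DNA replication. p27Kip1 is an inhibitor of the kinases that carry cells from G1 into S phase, and rats with this mutation develop tumors of several endocrine glands, among them gonadotroph adenomas of the anterior pituitary. The amount of mitotic mRNA in a piece of tumor follows both the number of dividing cells in it and the mRNA in each of them, and in bulk tissue fewer cells of a type and less RNA per cell cannot be told apart.

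The high-score group held adenoma 5 (score 8.61, male, 12 months, 3 lesions), adenoma 3 (8.44, male, 10 months, 3 lesions), adenoma 8 (8.04, female, 12 months, 1 lesion) and adenoma 7 (7.98, female, 12 months, 1 lesion). The low-score group held adenoma 4 (7.58, female, 7 months, 1 lesion), adenoma 2 (7.32, male, 10 months, 2 lesions), adenoma 6 (7.14, female, 8 months, 1 lesion) and adenoma 9 (6.18, female, 12 months, 2 lesions). Adenoma 1 (7.84, female, 11 months, 2 lesions) lay between the groups, just below adenoma 7, the last member of the high-score group, and above adenoma 4, the first of the low-score group. The score was 8.27 ± 0.31 (SD, n = 4) in the high-score and 7.06 ± 0.61 (SD, n = 4) in the low-score group, a difference of 1.21 on the log2 scale or 2.32-fold, and adenomas 5 and 9 differed 5.40-fold. The normal pituitaries scored 5.01 to 5.62 (5.28 ± 0.22, SD, n = 5), so that the adenoma with the lowest score was still above the highest normal gland. Since these 4 genes chose the groups, their differences of 1.27 (Top2a), 0.96 (Nusap1), 1.36 (Ccnb1) and 1.26 (Pbk) on the log2 scale only describe them.

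**Figure D1:**
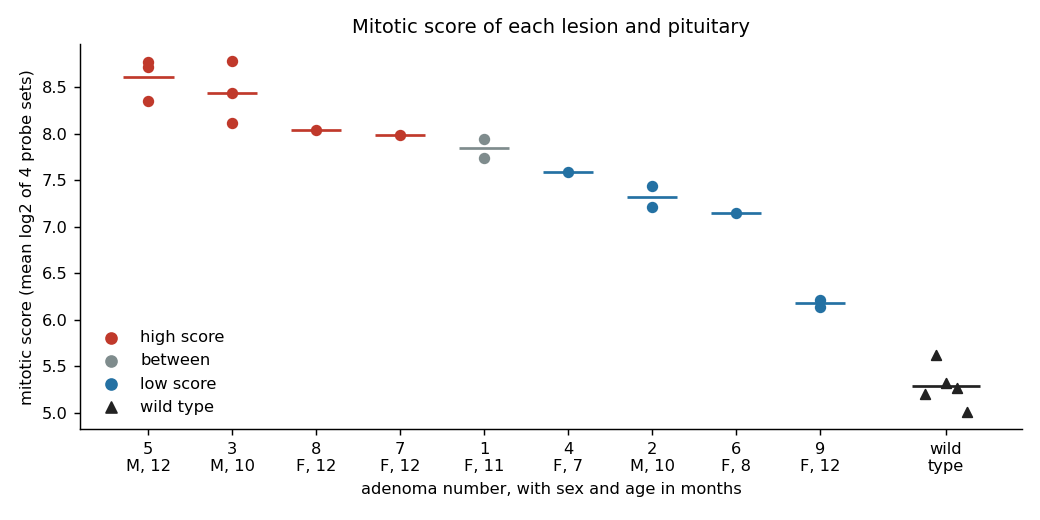
Mitotic score (mean log2 value of Top2a, Nusap1, Ccnb1 and Pbk) of each lesion, by adenoma in order of the score, with the adenoma mean as a line and the 5 normal pituitaries as triangles. The lesions of adenoma 3 ranged from 8.11 to 8.77 and those of adenoma 9 from 6.14 to 6.21, above all normal pituitaries, which lay between 5.01 and 5.62.

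The groups were then set against the labels. The ages are those of the labels, while the study's text gives a younger and narrower range, so the comparison of ages holds only if the labels are right. Age was 11.5 ± 1.0 months in the high-score and 9.25 ± 2.22 months in the low-score group (SD, n = 4 each, p = 0.257, two-sided exact permutation test). Females made up 2 of the 4 high-score and 3 of the 4 low-score animals, and the number prefix 08 occurred in 2 animals of each group (p = 1 for both, two-sided Fisher's exact test). With 4 animals against 4 these tests could miss a sizeable imbalance, and the 2 youngest adenoma animals, of 7 and 8 months, were both in the low-score group. Within each prefix the scores did not overlap either: they were 8.44 to 8.61 against 7.32 to 7.58 for prefix 08, and 7.98 to 8.04 against 6.18 to 7.14 for prefix 09. Lesions of one adenoma differed in score by at most 0.66.

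The tissue was checked before the comparison. Array medians ranged from 6.36 to 6.53 on the log2 scale. Cga, which encodes the subunit shared by the gonadotropins and thyrotropin, had 13.71 to 13.86 in the 8 adenomas against 12.44 to 13.23 in normal pituitary, and Nr5a1, the gonadotroph transcription factor SF-1, had 7.59 to 8.53 against 6.26 to 7.03, so neither range overlapped the normal one. Nr5a1 was named only through the study's own list of genes that differed between adenomas and normal pituitary, so its difference was known beforehand. Prl and Gh1, the hormones of lactotrophs and somatotrophs, also gave bright signals in the lesions (13.71 to 13.87 and 10.57 to 13.76). Cdkn1b, the gene for p27Kip1, had 8.99, 9.35, 9.22 and 9.29 in adenomas 5, 3, 8 and 7, and 9.19, 9.14, 9.30 and 9.55 in adenomas 4, 2, 6 and 9. The groups overlapped (high minus low -0.08), and the normal pituitaries had 8.65 to 9.11. The probe set does not tell the mutant from the wild-type transcript and so does not check the genotype.

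One lesion stood apart. Lesion 2 of adenoma 3 had the highest score of all (8.77), and the mean level of 21 interferon response genes was 8.78 in it against 6.32 to 7.07 in the other 15 lesions. Its mean over 17 genes of cholesterol synthesis was 9.43 against 8.01 to 8.51, and its mean over 19 genes of secretory granules and prohormone processing was 9.47 against 9.91 to 10.25. The macrophage and the T and NK cell lists were higher in it than in any other lesion, and the lists of neurons and of pericytes, fibroblasts and matrix lower. Without it 3 of the 48 named probe sets whose groups did not overlap came to overlap (Pdcl2, Rfx3 and Dlk1), and so did the means of the endothelial and gonadotroph lists. These are given with and without it.

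The promoters of several members are shown because late cell cycle genes share elements there. In mammals many such genes carry a pair of elements close to the start of transcription, the CHR (cell cycle genes homology region) and, upstream of it, CCAAT boxes bound by NF-Y. The sequences are the 200 bases before the start of the gene (RefSeq, GRCr8), read along the gene's strand. Capitals mark TTTGAA or TTCGAA, searched as the letters of the CHR, and CCAAT, each on both strands. The motifs can share bases at their ends, and such matches were counted for each. The order is Ccnb2 (chr8:79981659-79981858, minus strand), Prc1 (chr1:143659281-143659480, plus), Pttg1 (chr10:28406327-28406526, minus), Cdc20 (chr5:137255800-137255999, minus), Top2a (chr10:84473094-84473293, minus) and, as a gene of another function whose values were all higher in the high-score than in the low-score group, Nppc (chr9:94772187-94772386, minus). They were picked after their values were seen.
Ccnb2: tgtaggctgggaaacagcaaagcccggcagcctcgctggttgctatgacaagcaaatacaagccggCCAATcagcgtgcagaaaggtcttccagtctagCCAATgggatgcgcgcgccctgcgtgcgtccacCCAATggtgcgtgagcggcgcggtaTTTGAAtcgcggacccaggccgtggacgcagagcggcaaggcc
Prc1: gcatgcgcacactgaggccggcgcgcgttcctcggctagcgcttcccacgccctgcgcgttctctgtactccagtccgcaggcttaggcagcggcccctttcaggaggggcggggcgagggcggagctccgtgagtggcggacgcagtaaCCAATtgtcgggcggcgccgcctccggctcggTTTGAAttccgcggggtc
Pttg1: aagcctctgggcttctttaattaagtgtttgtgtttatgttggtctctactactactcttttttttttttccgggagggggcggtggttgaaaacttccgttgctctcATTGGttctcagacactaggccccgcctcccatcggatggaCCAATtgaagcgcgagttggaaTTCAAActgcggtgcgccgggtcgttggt
Cdc20: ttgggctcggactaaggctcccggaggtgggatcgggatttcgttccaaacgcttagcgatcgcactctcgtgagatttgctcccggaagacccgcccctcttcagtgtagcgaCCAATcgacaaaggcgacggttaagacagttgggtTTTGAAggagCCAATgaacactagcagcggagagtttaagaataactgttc
Top2a: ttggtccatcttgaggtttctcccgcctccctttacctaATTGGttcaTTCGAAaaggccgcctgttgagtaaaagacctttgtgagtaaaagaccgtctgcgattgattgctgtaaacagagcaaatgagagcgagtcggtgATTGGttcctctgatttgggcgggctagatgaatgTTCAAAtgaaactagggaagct
Nppc: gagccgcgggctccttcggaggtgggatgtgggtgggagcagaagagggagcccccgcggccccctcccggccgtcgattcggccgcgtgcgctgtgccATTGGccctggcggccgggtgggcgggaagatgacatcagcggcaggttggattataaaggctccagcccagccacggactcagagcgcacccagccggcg
The CHR letters stood 43 bases before the start in Ccnb2, 18 in Prc1, 29 in Pttg1, 51 in Cdc20 and 22 in Top2a, which had a further match, and they were not found in these bases of Nppc.

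The letters were counted in windows of 300 bases, from 250 before to 50 after the start. Of the 117 measured genes in 6 lists of mitosis, described below, 102 had a window, and 65 of these (63.7%) held the CHR letters, against 19.7% of all 33469 windows. CCAAT was in 69 of the 102 (67.6%, against 37.5% of all windows), and both were in 49 (48%, against 7.95%). Among members whose high-score values all lay above their low-score values the CHR letters were in 42 of 55 windows (76.4%), and among the other members in 23 of 47 (48.9%). In the lists of DNA replication and repair they were in 13 of 72 windows (18.1%), and CCAAT in 38 (52.8%). In the 100 bases before the start alone the contrast was smaller. There the CHR letters were in 23 windows (41.8%) of members without overlap and in 15 (31.9%) of the other mitosis members. Of all windows 6.18% held them there. These counts describe letters in sequence and do not show that a factor binds there.

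All probe sets other than the 4 of the score were then compared between the groups with limma. Because the groups were cut by values of the same arrays, this comparison describes which transcripts went with the score, and its p-values rank them. They measure the spread between these animals. Of 29210 probe sets, 2 were called higher in the high-score group at an adjusted p under 0.05 (0.00685%) and 0 lower, and 531 (1.82%) had a higher and 673 (2.3%) a lower mean at an unadjusted p under 0.05. In 346 probe sets (1.18%) all 4 high-score values lay above all 4 low-score values, and in 465 (1.59%) below.

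Both called probe sets belonged to Rrm2, which encodes the small subunit of ribonucleotide reductase, the enzyme that makes deoxyribonucleotides for DNA synthesis. In the first probe set (10883903) adenomas 5, 3, 8 and 7 had 8.57, 8.56, 8.33 and 8.40, and adenomas 4, 2, 6 and 9 had 7.29, 7.24, 7.29 and 6.94. The gap between the groups was wider than the range of values within either of them, adenoma 1 lay between them at 8.08, and the normal pituitaries were below all adenomas at 4.77 to 5.54. Rrm2 was 2.42-fold higher in the high-score group (log2 difference 1.27 ± 0.10, SE, limma adjusted p = 0.023), and the second probe set (10810144) gave 2.33-fold (1.22 ± 0.11, SE, limma adjusted p = 0.0251). The size of the difference was stable, while the call was not. Without any one of the 8 adenomas the difference in the first probe set stayed between 1.19 and 1.32, but its call was lost without any adenoma other than adenoma 9, and that of the second without any of the 8 (limma adjusted p = 0.0373 to 0.14 and 0.0662 to 0.177). Within prefix 08 the first probe set differed by 1.30 and within prefix 09 by 1.25.

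Genes of mitosis made up most of the other named transcripts with a higher level, and most of their values ordered the adenomas much as the score did. Ect2 encodes the exchange factor that starts the cleavage furrow, and it had 8.53, 8.08, 7.68 and 7.63 in the high-score adenomas and 6.89, 6.87, 6.51 and 5.73 in the low-score adenomas. Ndc80, a part of the kinetochore's microtubule anchor, had 8.40, 8.29, 7.82 and 7.81 against 7.14, 7.13, 7.01 and 5.98. Ccnb2, which encodes cyclin B2, had 8.43, 8.14, 7.91 and 7.70 against 7.42, 7.16, 6.93 and 6.44. In all of these adenoma 5 was the highest and adenoma 9 the lowest of the 8, and the groups did not overlap. The log2 differences were 1.48 ± 0.29 for Ect2, 1.26 ± 0.27 for Ndc80 and 1.06 ± 0.22 for Ccnb2 (SE), with limma adjusted p-values of 0.391, 0.473 and 0.459. Mki67, the gene for the proliferation marker Ki-67, had 7.97, 7.81, 7.73 and 7.79 against 7.19, 6.70, 7.13 and 6.30, a difference of 0.99 ± 0.19 (SE) with a limma adjusted p of 0.372. Further named differences without overlap were those of the checkpoint kinase Ttk (1.22), the spindle motor Kif4a (1.17), the securin Pttg1 (1.17), the cohesin acetyltransferase Esco2 (1.10 and 1.08 in 2 of its probe sets), the mitotic kinase Mastl (1.09), the midzone protein Prc1 (1.05) and the kinetochore protein Spc25 (1.05).

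**Figure D2:**
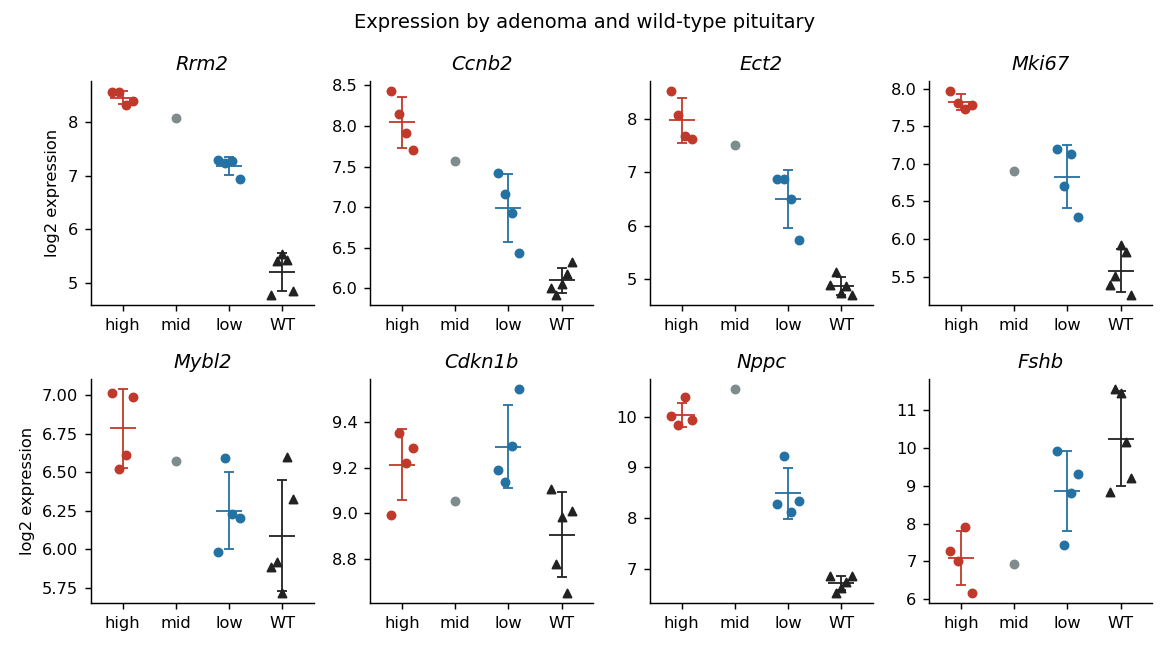
Log2 values of 8 genes in the high-score adenomas, adenoma 1 between the groups, the low-score adenomas and the normal pituitaries. Each point is 1 adenoma (lesions averaged) or 1 normal gland, and bars give mean ± SD. Rrm2, Ccnb2, Ect2 and Mki67 were higher in all 4 high-score than in all 4 low-score adenomas, Cdkn1b overlapped, and Fshb was lower in 3 of the 4 high-score adenomas than in any low-score one.

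The name of the score was checked on other genes of mitosis, followed in 6 lists with 117 measured members together. Of these, 67 had a higher and 1 a lower mean in the high-score group at an unadjusted p under 0.05, and 62 had no overlap with all high-score values above (1.18% of all probe sets did), while 0 passed the adjusted p. The median difference was 0.37 on the log2 scale against -0.02 over all probe sets, and 99 of the 117 means were higher (43.6% of all probe sets). Of the 117 members, 8 were named only through the study's own list of genes that differed between adenomas and normal pituitary, and without them 59 of 109 were higher and 1 lower. List members are counted as higher or lower at an unadjusted p under 0.05 from here on. The counts were similar without adenoma 9 (65 higher, 1 lower) and without lesion 2 of adenoma 3 (65 higher, 1 lower, against 1.83% and 2.39% of all probe sets in that setting).

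The cyclins and kinases of mitosis differed in most of their members. Of 20 measured 14 were higher at an unadjusted p under 0.05, with a median difference of 0.68, where 1.82% of all probe sets were higher. Ccna2, which encodes cyclin A2, had 6.85, 6.77, 6.85 and 6.76 against 6.14, 5.92, 5.87 and 5.66, and the gap between the groups was again wider than the range within either (0.91 ± 0.10, SE, limma adjusted p = 0.108). Cdk1 differed by 0.90, the checkpoint kinases Bub1 and Bub1b by 0.98 and 0.78, and the spindle pole kinase Aurka by 0.54. The groups overlapped for Aurka, and without lesion 2 of adenoma 3 its difference was 0.46 (unadjusted p = 0.0513 in limma). Cdc25b (-0.12), Wee1 (0.07) and Cks2 (0.09) of the same list differed little. In the list of cytokinesis 5 of 8 members were higher (median 0.76), among them Racgap1 (0.77), the partner of Ect2 at the spindle midzone.

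Spindle and kinetochore genes were higher in most members too. Of 29 spindle motors and microtubule proteins 21 were higher (median 0.60), where 1.82% of all probe sets were higher. Tpx2, which nucleates spindle microtubules, had 8.20, 8.17, 7.88 and 7.76 against 7.22, 7.05, 6.84 and 6.93, without overlap (0.99 ± 0.13, SE, limma adjusted p = 0.132). The motors Kif11 and Kif20a differed by 0.82 and 1.00, while Stmn1, which destabilises microtubules and is also expressed outside division, had -0.23. Of 30 kinetochore, centromere and checkpoint genes 19 were higher (median 0.39).

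The remaining lists of mitosis had lower medians. In the list of condensin, cohesin and chromosome structure 4 of 16 members were higher and 1, the cohesin subunit Smc3, lower (median 0.12). Of all probe sets 1.82% were higher and 2.3% lower. The condensin subunit Ncapg differed by 1.02 and Smc4 by 0.26. In the list of the anaphase-promoting complex and chromosome separation 4 of 14 were higher (median 0.06): its activator Cdc20 (0.70), the securin Pttg1, the inhibitor Fbxo5 (0.40) and the subunit Anapc5 (0.35).

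The lists of S phase and repair had medians between 0.10 and 0.22, and the share of members that were higher differed between them. Over all probe sets 1.82% were higher and 1.18% had no overlap with the high-score values above. Of 24 genes of origin licensing and the replicative helicase 12 were higher at an unadjusted p under 0.05, 7 of them without overlap, with a median of 0.22. Dtl, which marks the licensing factor for destruction, differed by 0.74, and the helicase subunit Mcm5 by 0.68. Of 37 genes of DNA polymerases, the clamp and nucleotide supply 8 were higher and 1 lower (median 0.10), with Pcna, the clamp itself, at 0.25 and Tyms, thymidylate synthase, at 0.04. Of 21 genes of DNA repair 5 were higher (median 0.10), including Parpbp, a regulator of homologous recombination, which differed by 0.67.

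The regulators upstream of these genes were read against the same 1.82% of all probe sets. Of 17 genes of the E2F, retinoblastoma, MYB and FOXM1 families and their partners 3 were higher (median 0.01). Mybl2, which encodes the MYB factor that activates late cell cycle genes, had 7.01, 6.52, 6.61 and 6.99 against 5.98, 6.59, 6.23 and 6.20, so that adenoma 2 of the low-score group overlapped (difference 0.53). E2f1 differed by 0.39 without overlap. Foxm1, E2f7 and E2f8 differed by 0.10, 0.12 and 0.11, with overlap of the groups for each. Of 12 G1 cyclins and kinases 3 were higher, among them Ccnd3 (0.34), while Ccne1 had 0.37 without passing p 0.05. Of 6 CDK inhibitors 2 were higher, Cdkn1a (0.56) and Cdkn2a (0.28), but 0 without lesion 2 of adenoma 3, and Cdkn1c and Cdkn2c differed by 0.38 and 0.23. Of 17 p53 targets 0 passed in either direction, with Phlda3 at 0.47 and Sesn1 at -0.31.

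**Figure D3:**
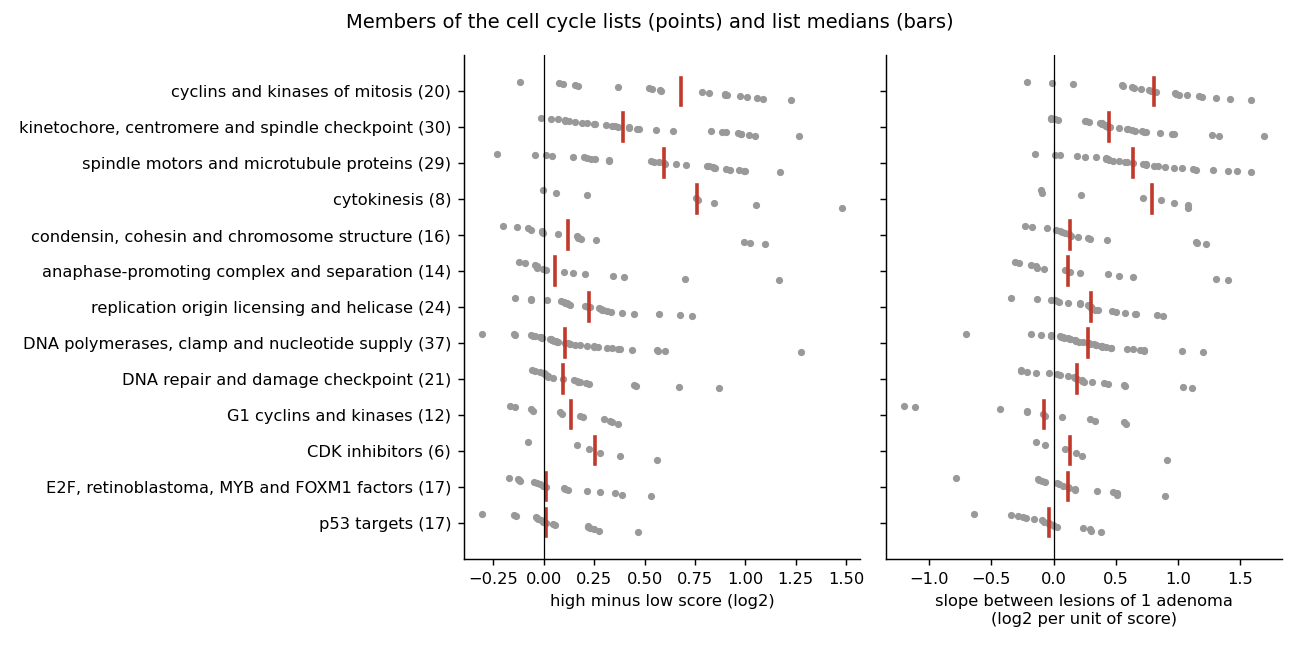
Log2 difference between high-score and low-score adenomas (one panel) and slope on the lesion score within adenomas (the other panel) for the members of 13 cell cycle lists. Points are genes and lines are list medians. Medians were between 0.39 and 0.76 in the 4 lists of kinases, kinetochore, spindle and cytokinesis and between 0.01 and 0.25 in the other 9 for the group difference.

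When the score was used as a continuous measure over all 9 adenomas, 56 probe sets had a positive slope and 0 a negative one at a limma adjusted p under 0.05 (0.192% of those tested). Of the 56, 43 belonged to 38 genes of the cell cycle lists, 8 had no symbol, and the other 5 were H1f1, Cip2a, Mms22l, Cdca2 and Ube2t, named here after their values were seen. H1f1 encodes a linker histone, and Mms22l and Ube2t encode proteins that act at damaged replication forks. Without adenoma 9, 26 probe sets were called positive and 0 negative, of which 24 were among the 56.

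The lesions of one adenoma gave a comparison that the choice of groups had not used, since their differences were averaged away before the ranking. A slope of each probe set on the lesion's own score was fitted within the 5 adenomas that had 2 or 3 lesions. Lesion scores ranged over 0.66 in adenoma 3 and 0.42 in adenoma 5, against 0.07 to 0.22 in adenomas 1, 2 and 9. Adenomas 3 and 5, both of the high-score group, therefore inform the slopes most. The 4 score genes and the other genes were still read on the same arrays, and a slope of 1 means that a gene changed as much as the score. At an adjusted p under 0.05, 0 probe sets were called by limma, and at an unadjusted p under 0.05, 1641 (5.62%) had a positive and 1249 (4.28%) a negative slope.

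Mitosis genes followed the score between lesions as well. Of the 117 members 61 had a positive and 0 a negative slope at an unadjusted p under 0.05, and 101 slopes were above 0 (49.7% of all probe sets), with a median of 0.53. Without lesion 2 of adenoma 3 the counts were 44 positive and 1 negative (over all probe sets 4.15% and 4.76%), 98 slopes were above 0 and the median was 0.47. In that setting such a median was not particular to mitosis genes. The interferon and respiratory chain lists had higher medians and the gonadotroph list a similar one, as given below. Bub1 had 7.18, 6.32 and 6.69 in the lesions of adenoma 3, 7.47, 7.41 and 6.75 in those of adenoma 5, and 5.95 and 5.42 in those of adenoma 2, and in each of these adenomas the lesion with the highest score had the highest value. Its slope was 1.42 (p = 4.9e-05 in limma's fit over all probe sets, adjusted p above 0.05) and 1.49 without the lesion that stood apart. Rrm2 had slopes of 1.20 and 1.22 in its 2 probe sets, and 1.00 and 1.12 without that lesion. Tpx2, Ndc80 and Pttg1 had slopes of 1.40, 1.33 and 1.40, and 1.29, 1.08 and 1.38 without it. Without single adenomas the slope of the first Rrm2 probe set ran from 0.73 to 1.38 and that of Tpx2 from 1.36 to 1.46. In the same settings Ndc80 ran from 0.98 to 1.42, Pttg1 from 1.01 to 1.52 and Kif4a from 0.31 to 1.23. Of the 82 S phase and repair genes 15 had a positive and 1 a negative slope at an unadjusted p under 0.05, with a median of 0.26.

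Interferon and cholesterol genes also had steep slopes, and much of their size came from 1 lesion. Of 21 interferon response genes 20 had a positive slope at an unadjusted p under 0.05, with a median of 1.94, and without lesion 2 of adenoma 3 there were 5, where 4.15% of all probe sets had such a slope, with a median of 0.59, against 0.47 for the mitosis genes in the same setting. Cxcl10, an interferon-induced chemokine, had 9.36 in that lesion and 4.99 to 5.96 in the other 15, and its slope went from 3.76 to 0.59. Usp18, which restrains interferon signalling, had 9.50 there and 8.01 or less in the other lesions, and its slope went from 2.52 to 1.60 (unadjusted p = 0.00142 without the lesion, limma's fit over all probe sets). Of 17 genes of cholesterol synthesis 14 had a positive slope with it (median 1.32) and 5 without it (median 0.29). Cyp51, a demethylase of that pathway, had 10.53 in the lesion and 9.12 or less elsewhere. Between the high- and low-score groups the interferon list had 0 of 21 members at an unadjusted p under 0.05, and the cholesterol list 2 of 17, Cyp51 (0.56) among them. Of the cholesterol means 16 of 17 were higher (43.6% of all probe sets, median 0.21), and 12 of 17 without the lesion (median 0.08). The mean level of the cholesterol list overlapped between the groups, at 8.16 to 8.63 in high-score and 8.01 to 8.40 in low-score adenomas. What set the lesion apart was not tested.

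**Figure D4:**
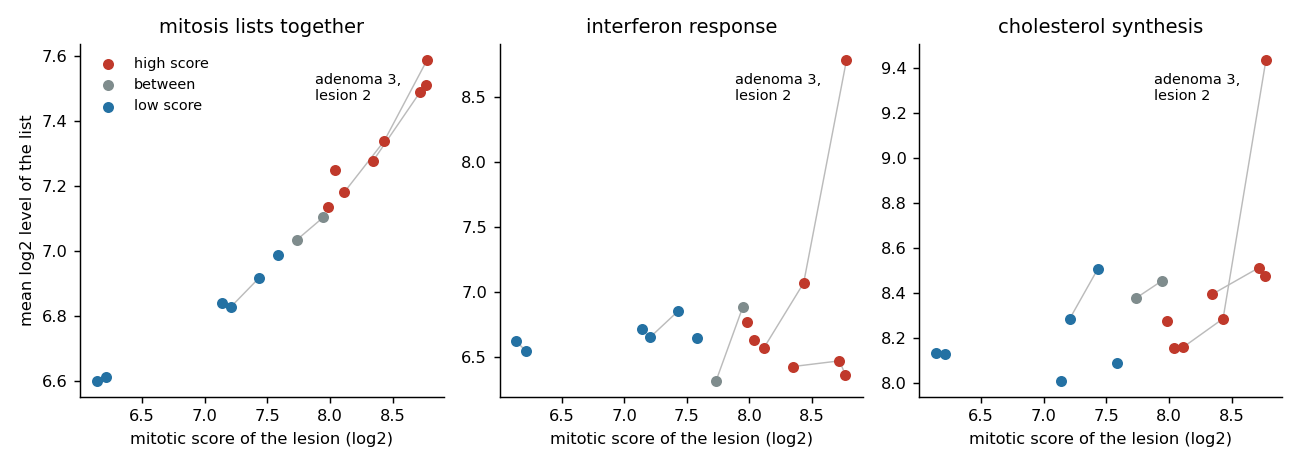
Mean log2 level of the mitosis, interferon response and cholesterol synthesis lists against the score of each of the 16 lesions, with grey lines joining lesions of one adenoma. Mitosis levels ran from 6.60 in the lesion with the lowest score to 7.59 in the lesion with the highest, while the interferon and cholesterol levels of lesion 2 of adenoma 3 (8.78 and 9.43) lay above all other lesions.

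Against normal pituitary, both groups had higher levels of mitosis genes. Adenomas were compared as animals with the 5 wild-type glands, and the low-score group is the more informative, since the rule had picked it for low levels. In the low-score adenomas limma called 593 of 29210 probe sets higher (2.03%) and 556 lower (1.9%), and in the mitosis lists 43 of 117 rose and 1 fell. In the high-score adenomas, which the rule had picked for high levels, 1605 (5.49%) were called higher and 1596 (5.46%) lower, and 69 and 2 of the 117. The 2 comparisons share the normal pituitaries. Without the 8 members named only through the study's own list, the low-score count was 37 higher and 1 lower of 109. Of the 117, 23 were called higher in the low-score group without adenoma 2 and 27 without adenoma 4, and 33 to 45 without any other single sample, while the methods' t-test called 5 in the low-score and 60 in the high-score group. Both groups are older than the normal rats, and the contribution of age was not tested.

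Tpx2 rose 2.48-fold in low-score adenomas and 4.94-fold in high-score adenomas over normal pituitary (5.56 to 5.88), with limma adjusted p-values of 9.8e-05 and 1.61e-07. Rrm2 (first probe set) rose 3.98-fold and 9.63-fold, Ect2 3.10-fold and 8.66-fold, and Mki67 2.38-fold and 4.74-fold, all called. Mki67 was named only through the study's own list of genes that differed between adenomas and normal pituitary, so its rise was known beforehand. From the same array series the study had also reported Tpx2, Ect2, Pttg1, Ccnb2, Cdk1 (as Cdc2) and Cdkn2c as up-regulated. It listed Kif4a (as Kif4) among the genes that differed. The rises of these genes over normal pituitary therefore repeat a published comparison. Ccnb2 rose 1.85-fold and 3.86-fold, and Pttg1 2.31-fold and 5.18-fold, but the low-score calls of both were lost without adenoma 2, without adenoma 4 and, for Pttg1, without normal pituitary 4. The low-score call of Kif4a (1.79-fold, limma adjusted p = 0.0418) was lost without any one of adenomas 2, 4 and 6 and normal pituitaries 3, 4 and 5, and when the high-score group was left out of the fit. Cdk1 was called in high-score adenomas alone (2.62-fold), with 1.40-fold and a limma adjusted p of 0.0936 in low-score adenomas. Mybl2 had a difference of 0.16 from normal in low-score and 0.70 in high-score adenomas, of which the second was called (limma adjusted p = 0.0296) and lost without any one of adenomas 5 and 7 and normal pituitaries 2 and 3. Calcr, the calcitonin receptor, which had 5.02 to 5.74 in normal pituitary, rose in both groups (log2 differences 5.55 and 5.87), and Cdkn2c, the inhibitor p18, by 1.35 and 1.57.

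Outside the cell cycle, Nppc had the largest difference of the named transcripts that were higher in the high-score group. It encodes the precursor of C-type natriuretic peptide, a hormone found in gonadotrophs. It had 10.00, 9.83, 10.38 and 9.94 in the high-score and 8.28, 9.23, 8.12 and 8.33 in the low-score adenomas, without overlap, and adenoma 1, which lay between the groups in score, had more than any of them, 10.54. Normal pituitary had 6.53 to 6.85. The difference was 1.55 ± 0.24 (SE, 2.92-fold, limma adjusted p = 0.243), and the slope within adenomas 1.58, or 0.85 without lesion 2 of adenoma 3. Without adenoma 2, the low-score adenoma with the most Nppc, the difference was 1.79 and was called (limma adjusted p = 0.0381), and without any other single adenoma it was not. The slope of Nppc on the score over all 9 adenomas was 0.92 and was not called (limma adjusted p = 0.895). Nppc rose in both groups over normal pituitary, 3.41-fold and 9.96-fold (limma adjusted p = 0.000455 and 6.02e-07). Fcrl2 differed by 1.15 without overlap, but its normal pituitary values reached as high as 7.14 and its slope within adenomas was -0.33.

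Of the transcripts lower in the high-score group 0 were called. Those named here had no overlap between the groups, in 2 cases only with lesion 2 of adenoma 3. Pdcl2, which encodes a phosducin-like protein, had 6.28, 6.71, 5.56 and 5.56 against 7.07, 7.12, 7.09 and 7.21, and 8.15 in adenoma 1, a difference of -1.09 (limma adjusted p = 0.511). The low-score adenomas were nearly alike, but the lesions of adenoma 3 had 4.45, 7.69 and 7.97. Without lesion 2 that adenoma was at 7.83, above all low-score adenomas, the difference was -0.81 (unadjusted p = 0.103 in limma), and the slope within adenomas went from -2.41 to 1.11. It rose in both groups over normal pituitary (3.19 to 3.90), which was known beforehand, since it was named only through the study's own list of such differences. Nr1d1, the clock repressor REV-ERB alpha, had 7.85, 8.19, 7.76 and 7.46 against 8.44, 8.28, 8.81 and 8.30 (difference -0.64). Slc5a3, a myo-inositol transporter, had 6.82, 6.61, 6.63 and 6.49 against 7.03, 7.09, 7.06 and 7.05, a small difference of -0.42 with little spread in the low-score group. The other named transcripts without overlap were Ccdc148 (-0.60), Rfx3, a factor of ciliary genes (-0.54, and -0.49 with overlap without lesion 2 of adenoma 3), Nat8b (-0.45), Mterf2 (-0.43), the histone deacetylase Hdac5 (-0.42), the receptor Met (-0.40), the histone methyltransferase Kmt5b (-0.39), Bphl (-0.39), Podxl (-0.39), Arhgap29 (-0.39), Mettl7a (-0.38) and Mccc1 (-0.38).

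Fshb had the lowest difference of all 29210 probe sets but varied between animals. Fshb, which encodes the beta subunit of follicle-stimulating hormone, had 7.28, 7.01, 7.91 and 6.17 in high-score and 9.93, 7.44, 8.81 and 9.30 in low-score adenomas. Adenoma 8 of the high-score group was above adenoma 2 of the low-score group, and the other high-score adenomas were below all low-score ones (difference -1.78 ± 0.53, SE, unadjusted p = 0.00881 and adjusted p = 1.0 in limma). Lhb, the beta subunit of luteinising hormone, had 7.11, 7.13, 6.48 and 6.58 against 7.58, 6.91, 7.91 and 7.34, also with overlap (-0.61, and -0.54 with an unadjusted p of 0.0671 in limma without lesion 2 of adenoma 3). Against normal pituitary Lhb fell in both groups (log2 differences -1.96 and -2.56), and Fshb was called lower in the high-score group (-3.15) and not in the low-score group (-1.37, limma adjusted p = 0.255). Cga, Nr5a1, Prl and Calcr differed between the groups by 0.04, -0.16, -0.04 and 0.32. The values of Cga and Prl lay near the highest on any array (14.09), so a difference in them could be missed.

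The means of 2 of 14 lists of cell type markers did not overlap between the groups, and both did without lesion 2 of adenoma 3. The mean level of 12 endothelial markers was 6.96 to 7.44 in high-score and 7.47 to 7.71 in low-score adenomas, without overlap, and 7.08 to 7.43 in normal pituitary. Of these markers 0 were higher and 3 lower at an unadjusted p under 0.05, the receptors Kdr (-0.65) and Tie1 (-0.49) and the sialomucin Emcn (-0.54), while 2.3% of all probe sets were lower. Of the 12 means 1 was higher (43.6% of all probe sets), with and without that lesion (median -0.23 in both cases), but without it the highest high-score level was 7.49. Between lesions of one adenoma the endothelial slopes did not share that sign, with 6 of 12 above 0 (median 0.02), and 11 of 12 without that lesion (median 0.25), where 48.8% of all probe sets had a slope above 0. The mean of 7 gonadotroph markers was 9.02 to 9.24 against 9.24 to 9.74, with a margin smaller than the rounding of these values, and up to 9.36 in high-score adenomas without the lesion. Of the gonadotroph slopes within adenomas 3 of 7 were above 0 (median -0.12), and 7 of 7 without that lesion (median 0.44, 3 of them at an unadjusted p under 0.05). Of all probe sets 4.15% had such a positive slope without it. The other 12 lists overlapped between the groups: for macrophages, for example, the mean was 7.41 to 7.66 against 7.03 to 7.72, and for T and NK cells 5.33 to 5.78 against 5.44 to 5.64. The part of cell composition in the differences between the groups was not tested.

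**Figure D5:**
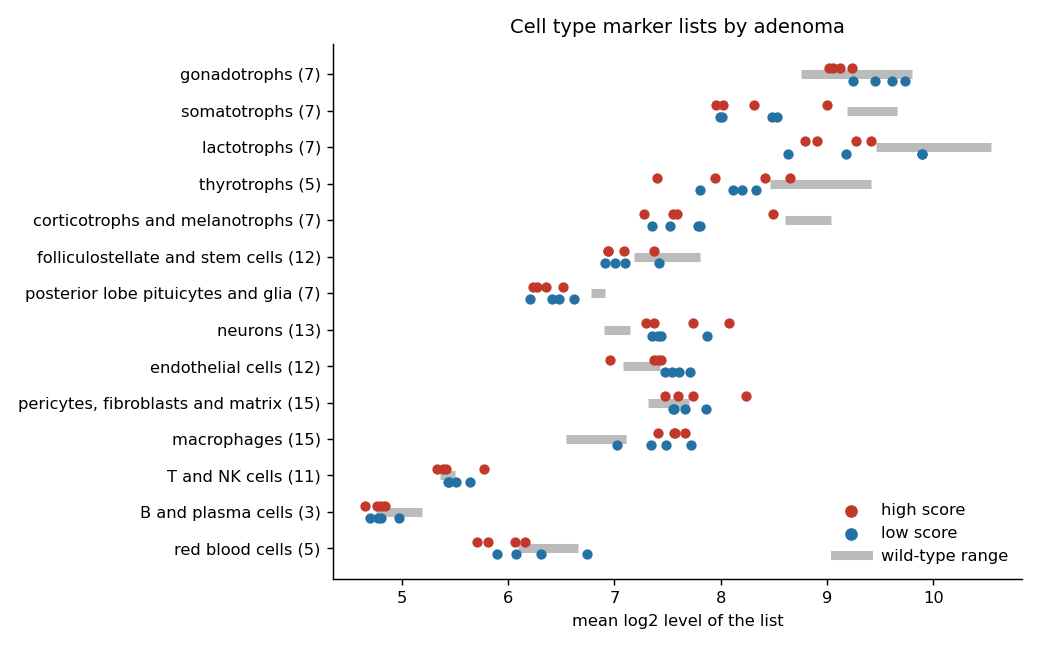
Mean log2 level of 14 lists of cell type markers in each high-score and each low-score adenoma (points), with the range of the 5 normal pituitaries as a bar. Endothelial and gonadotroph levels of the 4 high-score adenomas lay below those of the 4 low-score adenomas, but overlapped them without lesion 2 of adenoma 3, and the levels of the other 12 lists overlapped.

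Steroid, respiratory, stress and growth factor genes were followed in further lists. Over all probe sets 1.82% were higher and 2.3% lower at an unadjusted p under 0.05. Of the 14 genes of steroid synthesis and SF-1 targets 0 passed an unadjusted p of 0.05. Cyp11a1, the side-chain cleavage enzyme that begins steroid synthesis, had 8.34, 10.42, 5.89 and 10.04 against 10.61, 7.50, 7.50 and 7.51, so that both groups held low and high adenomas (difference 0.39 ± 1.07, SE). Without lesion 2, adenoma 3 was at 9.20 and the difference was 0.09. Scarb1, a receptor that takes up cholesterol, had 9.02 to 12.18 against 10.00 to 11.50. Of 30 genes of the respiratory chain 1 was higher, while 28 of the 30 means were higher (43.6% of all probe sets) with a median difference of 0.11. The mean level of these genes overlapped between the groups, at 9.69 to 10.04 in high-score and 9.56 to 10.07 in low-score adenomas. Within adenomas 27 of their 30 slopes were above 0 (median 0.16), and 30 of 30 without lesion 2 of adenoma 3 (median 0.50), 7 of them at an unadjusted p under 0.05. Of all probe sets 4.15% had such a positive slope in that setting. Of 22 genes of the unfolded protein response and amino acid stress 2 were higher (median 0.11), Mthfd2, a mitochondrial folate enzyme, at 0.67 among them, and 1 without that lesion, and the amino acid transporter Slc7a5 had 1.03. Of 31 growth factor receptors and ligands 2 were higher, Bmp7 (0.94) among them, and 1 lower, Met. Without that lesion 0 of them were higher and 1 was lower.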

How the data were processed

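Expression in 16 rat pituitary lesions and 5 wild-type pituitaries was read on the Rat Gene 1.0 ST array of Affymetrix, with 1 array for each. Gene-level log2 values were computed by the authors with RMA in Affymetrix Expression Console, per the labels and the study's methods, with median polish and sketch-quantile normalization, and were deposited as such (program versions: not given in the sources used here). Scanner files were not used here. Such normalization can hide a shift of most genes, values near the background or near saturation understate a fold, and the number of arrays limits the precision.

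The table had 29214 probe sets. Of these 15310 carried 1 symbol in the platform annotation, 323 several (not named) and 13434 none, and 147 were named only through the study's own list, among them Esco2, Pdcl2, Ncapg, Dtl, Mki67 and Nr5a1. Lesions were averaged by sample number. Where a gene had several probe sets, the brightest by its mean over the 21 arrays stood for it in a list. limma 3.58.1 in R 4.3.3 fitted the 4 high-score against the 4 low-score adenomas, slopes on the lesion score with the sample number as a block (16 lesions), and both groups and adenoma 1 with wild-type pituitary, adjusted by Benjamini-Hochberg over 29210 probe sets and called at an adjusted p under 0.05. Exact tests used scipy 1.17.1. Fits were tested on simulated data. No filter on low values was used in the main fits.

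Genes were named by rule: in each direction up to 15 probe sets with 1 symbol, those called and then those with the largest difference among those without overlap and with an unadjusted p under 0.01, the leading members of each of 37 gene lists, and a set of cell cycle and pituitary genes. A result that this rule gave for the DNA repair list is not reported here. The groups, lists and genes were chosen with earlier results of these data known. Promoter windows came from RefSeq (GRCr8). Alternatives were other groupings, covariates for prefix, sex and age, other normalizations and variance models, the methods' t-test, single samples left out and, chosen after seeing the data, the slope without adenoma 9 and all fits without lesion 2 of adenoma 3.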

Additional observations from a re-analysis of the deposited data

Results flagged for a closer look

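Among 242 groups of 4 or 5 values of the named genes, 11 held a value whose gap to the nearest other was large against the range of its group, and chance gives about 1 in 20 groups. Of the 11 values 4 came from adenoma 9, the adenoma with the lowest score. In the low-score group Rrm2 was lowest in adenoma 9 (6.94, the others 7.24 to 7.29), as was Ndc80 (5.98, the others 7.01 to 7.14), while Gad2, the glutamate decarboxylase of inhibitory neurons, was highest there (7.20, the others 4.28 to 4.44), as was Cdkn2c (10.07, the others 8.77 to 8.93). Cyp11a1 was highest in adenoma 4 (10.61, the others 7.50 to 7.51), Scarb1 in adenoma 2 (11.50, the others 10.00 to 10.20) and Hdac5 in adenoma 6 (8.71, the others 8.30 to 8.32). In the high-score group Prc1 and Ncapg were lowest in adenoma 7 (7.77, the others 8.28 to 8.35, and 5.55, the others 5.91 to 5.96), Nr5a1 was lowest in adenoma 8 (7.59, the others 7.96 to 8.01) and Parpbp was highest in adenoma 5 (7.02, the others 6.05 to 6.20).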

How the results depend on the processing

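The 2 calls of Rrm2 became 0 with 3 adenomas a group, females alone, the first lesion alone, median centring, prefix 08 or 09 alone and the methods' t-test with equal or unequal variances, and 0 to 1 without single adenomas. They became 14 with the prefix as covariate, 15 with lesions kept separate, 26 as a slope over 8 adenomas without adenoma 9 and 56 over 9 adenomas, and lower calls stayed at 0 in all of these. Within adenomas 0 slopes were called in either direction, also without single adenomas, 1 positive among bright probe sets alone, and 528 positive and 271 negative at an unadjusted p under 0.01. Low-score against normal calls (593 higher, 556 lower) became 1052 and 990 with lesions separate, 360 and 243 with 2 groups alone and 53 and 10 by t-test, and ran from 261 to 877 and from 179 to 1070 without single samples, lowest without adenoma 2. High-score calls (1605 and 1596) became 643 and 630 by t-test and ran from 980 to 1989 and from 914 to 2478, lowest without adenoma 7. The highest counts came without normal pituitary 1. No paired analysis was possible because the high- and low-score groups share 0 replicate numbers, and the high-score group and normal pituitary share 1. With the replicate block, low-score calls against normal became 3138 higher and 3233 lower, resting on the 2 lesions of adenoma 2. The labels give no reason for such a pairing, and the cause was not tested.

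Of the differences of named genes between the score groups under the alternatives, 2980 kept their direction and their side of the threshold, 42 gained a call, 32, all of Rrm2, lost one and 53 changed sign, all of genes not called. With age as covariate these were Agtr1b (0.39), Angpt1 (0.47), Vim (-0.63), Slc1a3 (0.33), Gad2 (-0.22), Nefm (-0.18), Col1a2 (-0.0054), Cd74 (0.047), Jchain (0.017), Fgf13 (-0.31), Slc2a3 (0.15), Egr1 (0.0086), Dusp1 (-0.31), Ret (-0.24) and Cdkn2c (-0.17). As a slope over 9 adenomas they were Gh1 (0.0022), Agtr1b (0.012), Tshb (0.083), Vim (-0.42), Gad2 (-0.37), Nefm (-0.16), Col1a2 (-0.14), Dcn (0.076), Dusp1 (-0.25) and Cdkn2c (-0.21), and over 8, without adenoma 9, Tshb (0.13), Alas2 (0.026) and Nr5a1 (0.082). In prefix 08 alone they were Gh1 (0.26), Tshb (0.39), Nefm (-0.046), Cdkn1b (0.0086), Nr5a1 (0.027) and Calcr (-0.044), in prefix 09 alone Cdkn1c (-0.091), Cd79b (0.078) and Scarb1 (-0.069), in females alone Cdkn1c (-0.079), Cd79b (0.045), Scarb1 (-0.017) and Cyp11a1 (-0.58), with sex as covariate Cdkn1c (-0.066), and with 3 a group Pomc (-0.079) and Fgf13 (-0.047). Without single adenomas the ranges were -0.14 to 0.95 (Cdkn1c), -0.34 to 1.11 (Pomc), -0.20 to 1.73 (Gad2), -0.72 to 0.16 (Dcn), -0.13 to 0.0048 (Cdkn1b), -0.0054 to 0.25 (E2f8), -0.19 to 1.32 (Cyp11a1) and -0.27 to 0.0057 (Nr5a1). Of the slopes within adenomas, Cxcl10 ran from -0.12 to 5.44 and E2f8 from -0.17 to 1.38, with E2f8 at -0.079 without lesion 2 of adenoma 3.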

Other observations

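Dlk1, a membrane protein of somatotrophs, was the 1 of 7 somatotroph markers that was higher in the high-score group at an unadjusted p under 0.05. It had 11.32, 9.48, 10.57 and 9.73 in adenomas 5, 3, 8 and 7 and 9.31, 9.02, 9.38 and 8.62 in adenomas 4, 2, 6 and 9, without overlap (difference 1.19, limma adjusted p = 1.0). Its lesions in adenoma 3 had 9.98, 9.39 and 9.06, and without lesion 2 that adenoma was at 9.22, below adenomas 4 and 6, so that the groups overlapped (difference 1.13). Dlk1 fell in both groups against normal pituitary (10.96 to 12.46). Growth hormone itself (Gh1) had 10.57 to 13.76 in the high-score and 12.44 to 13.55 in the low-score adenomas. Bag1, a chaperone cofactor, differed by 0.94 and Dio2, the deiodinase of thyrotrophs, by 0.79, both at an unadjusted p under 0.05 and with overlap.

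Several genes of the cell type lists varied more within a group than between the groups. Gad2 had 9.76 in adenoma 8, 7.20 in adenoma 9 and 4.28 to 5.39 in the other 6 adenomas of the groups. Pomc, the precursor of ACTH, had 11.15 in adenoma 7 against 6.80 to 8.89 in the other 7, and Oacyl, a marker of melanotrophs, was also highest there (8.87 against 5.72 to 6.74). Vim was highest in adenomas 9 (11.46), 8 (11.40) and 7 (10.84), and 8.79 to 9.44 in the other 5. Tshb ran from 5.14 to 9.96 in the high-score and from 7.47 to 10.11 in the low-score group. The remaining named members of the lists had an unadjusted p above 0.05: Agtr1b (-0.73), Angpt1 (-0.52), Aldh1a1 (-0.43), Slc1a3 (-0.32), Slc1a2 (-0.29), Nefm (0.37), Tek (-0.68), Col1a2 (0.44), Dcn (-0.41), Cd74 (-0.80), Laptm5 (0.51), Il7r (0.32), Cd8a (-0.29), Jchain (-0.15), Cd79b (-0.05), Hbb (-0.97), Alas2 (-0.53), Fgf13 (0.61), Cadps (-0.48), Syt5 (0.37), Higd1a (0.35), Slc2a3 (-0.30), Egr1 (-0.35), Dusp1 (0.29), Dhcr7 (0.75), Ndufa1 (0.24), Cox5a (0.22), Ret (0.63) and Bcl2 (-0.34).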
